A study of Homo sapiens with 18 samples.

Results

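H2AX and 7 genes that supply or handle new histones (ASF1A, ASF1B, CHAF1A, CHAF1B, NASP, SLBP and HAT1) were followed in pancreatic cancer cells depleted of OFD1. These 8 of the 26668 gene symbols in the table were taken by name. H2AX was looked for under its older symbol H2AFX too and stood under H2AX. They were chosen from earlier results of the same FPKM values, knockdown against control in the same 3 lines, in which H2AX had the largest fall of any gene in 1 of them, so the changes of the 8 genes between knockdown and control are given as a description and carry no p-value.

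In every S phase a cell must double its histones along with its DNA. The core histones of S phase come from clustered genes whose mRNAs end in a stem-loop instead of a poly(A) tail, and SLBP binds that stem-loop. New H3-H4 is acetylated by HAT1, held by NASP and the paralogs ASF1A and ASF1B, and laid onto replicated DNA by chromatin assembly factor 1, whose large and middle subunits are CHAF1A and CHAF1B. H2AX is an H2A variant spread through chromatin. The kinases ATM, ATR and DNA-PK phosphorylate its tail beside DNA double-strand breaks, where the mark (gamma-H2AX) recruits MDC1. Its gene gives both a stem-loop mRNA and a polyadenylated mRNA. These data measure mRNA, not the protein or the mark.

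The study used 3 established human pancreatic cancer lines, PANC1 (PANC-1 in the labels), MIA PaCa-2 and PATU8988T (PaTu 8988T in the labels), each with 3 control and 3 knockdown libraries, 18 in all. The knockdown libraries carry the genotype shOFD1 in the labels and came from cells with a Tet-on short hairpin RNA against OFD1, a protein of centrioles and centriolar satellites, taken 72 h (day 3) after doxycycline. The control libraries are titled shControl, have the genotype WT and no treatment, and correspond to day 0 in the design text, whereas the methods of the study describe the same Tet-on shOFD1 cells given DMSO. Doxycycline was thus given to the knockdown cultures alone, which of the hairpins was used is not given in the sources used here, and an effect of the drug or of a hairpin off target cannot be told apart from that of OFD1 loss. For replicates 2 and 3 of PATU8988T the cell line label carries another number than the title, and the titles were followed.

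Values are FPKM (fragments counted, scaled for gene length and library size), a level per length that lets genes be set side by side within a library. About 32246116 to 39521410 reads per library were recovered from the FPKM steps, and the 8 genes rested on 238 reads (CHAF1B in a PANC1 knockdown library) to 12976 reads (NASP in MIA PaCa-2). OFD1 was lower in all 3 knockdown libraries than in all 3 controls of each line, with control and knockdown means of 5.43 and 2.55 FPKM (PANC1), 2.85 and 1.82 FPKM (MIA PaCa-2), and 2.06 and 0.911 FPKM (PATU8988T). These means compare groups within a line only. The length by which OFD1 was scaled, recovered from the FPKM steps, was near 4181 bases for PANC1. For MIA PaCa-2 it was near 9374 bases, and for PATU8988T near 9557. The PANC1 level of OFD1 is thus not on the scale of the others. KRT8 and KRT18, keratins of glandular epithelium, were above 300 FPKM in every library. KRT19 was at most 0.0194 FPKM in PATU8988T but at least 85.7 FPKM in PANC1 and MIA PaCa-2. EPCAM and CDH1 were at most 0.0991 and 0.0321 FPKM in MIA PaCa-2, and CDH1 at most 0.378 FPKM in PATU8988T. KRT7 was at most 0.478 FPKM in PATU8988T and 1.21 FPKM in MIA PaCa-2. VIM, a mesenchymal gene, was above 580 FPKM in every library. The leukocyte gene PTPRC had 2.32 to 6.22 FPKM in MIA PaCa-2, where CD3E had 0. COL1A1, a fibroblast gene, had up to 26.6 FPKM in PANC1, where DCN had 0. In MIA PaCa-2, control replicate 2 stood apart from controls 1 and 3 along transcript GC content. The log2 fold changes of the 8 genes and the counts of the 5 lists of histone supply and H2AX genes are given with and without it. The S-phase and G2/M markers, the ratios within a library and the comparison of control levels between lines are given with it only.

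H2AX, at chr11:119093854-119095467 on the minus strand of GRCh38 (GENCODE 29, 1614 bases), was at a fraction of its control level in PANC1 and MIA PaCa-2 after knockdown and close to it in PATU8988T. In PANC1 its level was 33.4, 29.4 and 27.9 FPKM in the controls and 10.6, 9.44 and 10.3 FPKM in the knockdown libraries. The 2 groups did not overlap, and the knockdown mean was 33.4% of the control mean (log2 fold change -1.57, SE 0.069, n = 3 per group, on the log2(FPKM + 0.1) scale used throughout). In bulk RNA, fewer cells expressing a gene and less RNA per cell cannot be told apart.

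In MIA PaCa-2, H2AX measured 85.3, 136 and 89.9 FPKM in the controls and 13.4, 15.4 and 14.6 FPKM in the knockdown libraries. Every knockdown library was below every control by a wide margin, and control 2 was the highest of the 6. The knockdown mean was 14% of the control mean (log2 fold change -2.80, SE 0.18). Without control replicate 2 it was 16.5% (log2 fold change -2.59, SE 0.057). Ranked by change, H2AX was number 1 from the bottom of 10758 genes tested in MIA PaCa-2, 132 of 10902 in PANC1 and 2339 of 10698 in PATU8988T.

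In PATU8988T, H2AX measured 85.9, 88.5 and 90.0 FPKM in the controls and 73.0, 84.4 and 79.3 FPKM in the knockdown libraries. The groups did not overlap, but the gap between the closest libraries was small, and the knockdown mean was 89.5% of the control mean (log2 fold change -0.16, SE 0.052). Libraries of this line also deviated from their group with transcript GC content. Pearson r, as a description across genes, was -0.563 and 0.550 for knockdown replicates 1 and 2 and 0.331 for control replicate 3. After each library was corrected for transcript GC content the log2 fold change of H2AX was -0.06. The 3 controls of PATU8988T lay within the range of the MIA PaCa-2 controls, and its knockdown libraries were all below that range.

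**Figure D1:**
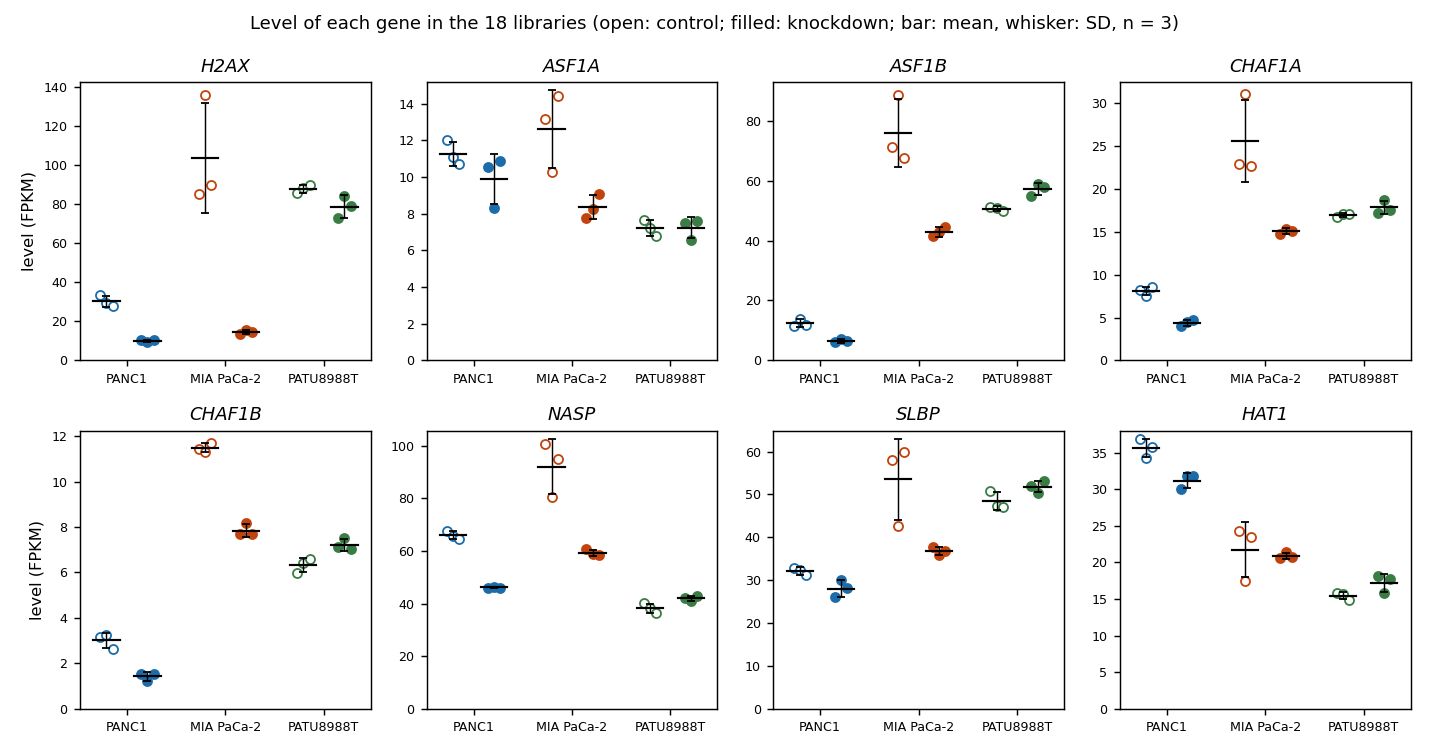
Level in FPKM (linear axes from 0) of each of the 8 genes in the 18 libraries, by line, with open points for control and filled points for knockdown, a bar for the mean and a whisker for the SD (n = 3). The H2AX means were 30.3 and 10.1 FPKM in PANC1, 104 and 14.5 FPKM in MIA PaCa-2, and 88.1 and 78.9 FPKM in PATU8988T.

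The stretch just before the H2AX start, and those of ASF1B and CHAF1A, are shown because H2AX had the largest change, ASF1B holds the CHR-type motif close to its start and CHAF1A holds the E2F-like motif. They are RefSeq sequence of GRCh38.p14, 5′ to 3′ toward the gene, with matches to the motifs in capitals. H2AX is chr11:119095466-119095715 (minus strand, 250 bases). ASF1B is chr19:14136590-14136689 (minus strand, 100 bases) and CHAF1A is chr19:4402540-4402639 (plus strand, 100 bases), each ending at the base before the start.
H2AX: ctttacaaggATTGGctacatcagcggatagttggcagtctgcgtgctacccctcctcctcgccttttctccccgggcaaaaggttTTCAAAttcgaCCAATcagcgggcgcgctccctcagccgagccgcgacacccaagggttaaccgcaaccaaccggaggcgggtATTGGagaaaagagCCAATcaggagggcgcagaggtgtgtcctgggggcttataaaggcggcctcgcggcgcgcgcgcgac
ASF1B: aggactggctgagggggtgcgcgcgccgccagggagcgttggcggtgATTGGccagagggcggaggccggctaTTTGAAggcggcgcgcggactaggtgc
CHAF1A: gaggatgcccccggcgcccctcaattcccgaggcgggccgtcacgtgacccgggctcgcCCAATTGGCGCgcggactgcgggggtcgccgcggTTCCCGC

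All 8 genes matched a promoter window, 250 bases before to 50 bases after the start, and both strands were searched. CCAAT, the box bound by NF-Y, occurred 4 times before the H2AX start, on both strands, and was held by 6 of the 8 windows (H2AX, ASF1A, ASF1B, CHAF1A, NASP and HAT1), against 35.7% of the 27305 promoter windows. A hexamer of the cell cycle homology region (CHR) type (TTTGAA in its usual form, with TTCGAA as an alternative and TTTAAA as the third form searched) was held by 3 of 8 (H2AX, ASF1B and NASP), against 25.3% of all. An E2F-like heptamer (TTCCCGC in its usual form, with TTCGCGC as another form, TTGCCGC as the third and TTGGCGC as the last) was held by 2 of 8 (CHAF1A and CHAF1B), against 13.1% of all. In CHAF1A, CCAAT in both directions and TTGGCGC overlap in the run of capitals in the middle. These matches describe letters in a window, not bound sites, and SLBP held none of them.

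The paralogs ASF1A and ASF1B, histone chaperones that hand H3-H4 to CAF-1 or HIRA, had different values. ASF1B, the form linked to dividing cells, measured 11.4, 13.9 and 11.8 FPKM in the PANC1 controls and 6.0, 7.10 and 6.49 FPKM after knockdown. The MIA PaCa-2 controls had 71.2, 88.6 and 67.6 FPKM and the knockdown libraries 41.3, 42.8 and 44.4 FPKM. The PATU8988T controls had 51.3, 50.7 and 49.7 FPKM and the knockdown libraries 54.9, 58.9 and 57.9 FPKM. The groups were apart in each line, lower after knockdown in PANC1 (log2 fold change -0.91, SE 0.086) and MIA PaCa-2 (-0.81, SE 0.11) and higher in PATU8988T (0.18, SE 0.039).

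ASF1A measured 12, 11.1 and 10.7 FPKM in the PANC1 controls and 10.5, 8.34 and 10.8 FPKM after knockdown, so the groups overlapped. In MIA PaCa-2 it was 13.2, 10.3 and 14.4 FPKM in the controls and 7.79, 8.25 and 9.07 FPKM after knockdown, and the groups were apart. In PATU8988T both means were close to 7.2 FPKM (7.21 and 7.23) and the groups overlapped. Its log2 fold changes were -0.19 (SE 0.093), -0.58 (SE 0.14) and 0.00 (SE 0.072) in the same order. ASF1A lies wholly inside MCM9 on the opposite strand, and whether reads were counted by strand is not given in the sources used here. The ratio of ASF1B to ASF1A within a library was 0.947 to 1.26 in the PANC1 controls and 0.570 to 0.852 after knockdown. It was 4.68 to 8.63 against 4.90 to 5.31 in MIA PaCa-2, and 6.72 to 7.34 against 7.32 to 8.95 in PATU8988T, and in both of these lines the groups overlapped.

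The CAF-1 subunits had the same direction in each line. CHAF1A, the large subunit, was 8.18, 7.56 and 8.49 FPKM in the PANC1 controls and 4.03, 4.43 and 4.71 FPKM after knockdown. MIA PaCa-2 controls measured 22.9, 31.0 and 22.6 FPKM and the knockdown libraries 14.7, 15.4 and 15.1 FPKM. PATU8988T controls measured 16.7, 17.1 and 17.1 FPKM and the knockdown libraries 17.2, 18.7 and 17.6 FPKM. Knockdown libraries were below the controls in the first 2 lines (log2 fold changes -0.87, SE 0.075, and -0.74, SE 0.13) and just above them in PATU8988T (0.07, SE 0.046).

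CHAF1B, the middle subunit and the least expressed of the 8 in every control group, was 3.14, 3.24 and 2.65 FPKM in the PANC1 controls and 1.55, 1.21 and 1.53 FPKM after knockdown. In MIA PaCa-2 it was 11.4, 11.3 and 11.7 FPKM in the controls and 7.70, 8.16 and 7.67 FPKM after knockdown. PATU8988T had 5.99, 6.41 and 6.57 FPKM in the controls and 7.11, 7.53 and 7.02 FPKM after knockdown. The groups were apart in all 3 lines, with log2 fold changes of -1.03 (SE 0.13), -0.55 (SE 0.081) and 0.19 (SE 0.059). Within a library CHAF1A stood at 2.33 to 3.20 times CHAF1B in the PANC1 controls and 2.60 to 3.65 times after knockdown, at 1.93 to 2.74 and 1.88 to 1.97 times in MIA PaCa-2, and at 2.60 to 2.79 and 2.42 to 2.51 times in PATU8988T. The ranges overlapped in PANC1 and MIA PaCa-2 and were apart in PATU8988T.

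NASP, which binds H3-H4 and protects the soluble pool, was the most expressed of the 8 in the PANC1 controls, at 67.5, 65.9 and 64.5 FPKM, and measured 46.0, 46.4 and 46.1 FPKM after knockdown. MIA PaCa-2 had 101, 80.4 and 95.1 FPKM in the controls and 60.7, 59.1 and 58.4 FPKM after knockdown. In PATU8988T it was 40.1, 38.2 and 36.6 FPKM in the controls and 42.1, 41.0 and 42.8 FPKM after knockdown. The groups were apart in each line, with log2 fold changes of -0.51 (SE 0.028), -0.63 (SE 0.095) and 0.13 (SE 0.043).

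SLBP, needed for the processing and translation of stem-loop histone mRNAs, differed less between groups in PANC1 than in MIA PaCa-2. It was 32.9, 32.4 and 31.2 FPKM in the PANC1 controls and 26.1, 30.0 and 28.1 FPKM after knockdown. The controls of MIA PaCa-2 were at 58.1, 42.6 and 59.9 FPKM and the knockdown libraries 37.8, 35.9 and 36.8 FPKM. In PATU8988T it was 50.8, 47.3 and 47.1 FPKM in the controls and 52.1, 50.4 and 53.0 FPKM after knockdown. Its log2 fold changes were -0.20 (SE 0.050), -0.52 (SE 0.14) and 0.10 (SE 0.042), with groups apart in the first 2 lines and overlapping in PATU8988T.

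HAT1, the acetyltransferase of new H4, was 36.8, 34.3 and 35.8 FPKM in the PANC1 controls and 30.0, 31.7 and 31.8 FPKM after knockdown. In MIA PaCa-2 it was 24.3, 17.5 and 23.4 FPKM in the controls and 20.5, 21.4 and 20.7 FPKM after knockdown, so that control 2 alone made the groups overlap. In PATU8988T it was 15.8, 15.7 and 14.9 FPKM in the controls and 18.2, 15.8 and 17.7 FPKM after knockdown, and the groups overlapped. Its log2 fold changes were -0.19 (SE 0.039), -0.04 (SE 0.14) and 0.15 (SE 0.059). HAT1 lies inside SLC25A12 on the opposite strand, and CHAF1B shares 771 bases with MORC3 on the same strand.

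**Figure D2:**
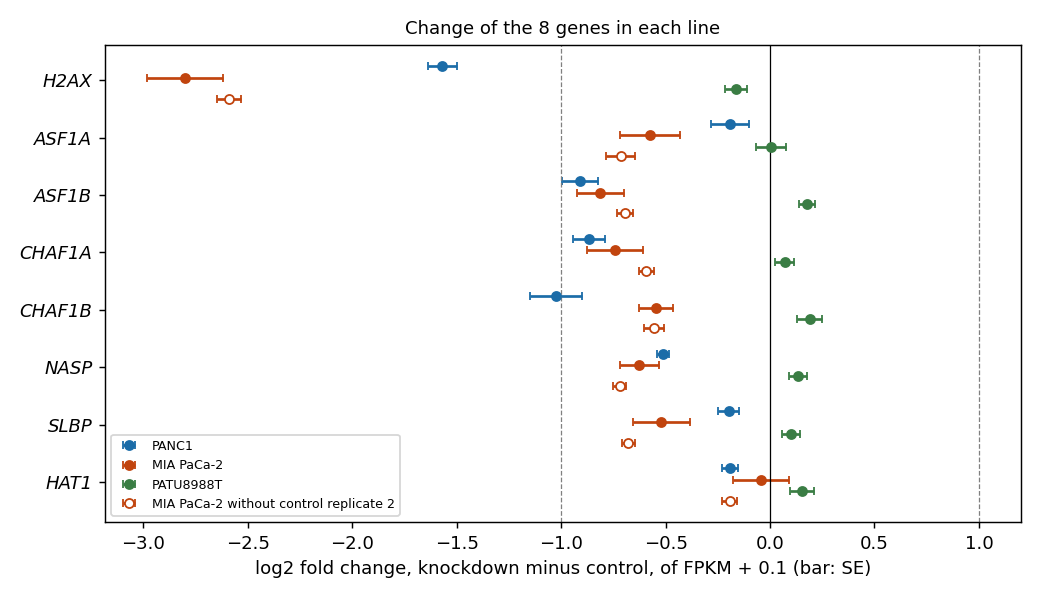
Log2 fold change, knockdown minus control, of each gene in PANC1, MIA PaCa-2 and PATU8988T, with bars for the SE, open points for MIA PaCa-2 without control replicate 2, and dashed lines at 2-fold. H2AX in MIA PaCa-2 (-2.80, and -2.59 without control 2) and PANC1 (-1.57) lies far beyond the other genes, and the PATU8988T points stay between -0.16 and 0.19.

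A gene was counted as past the threshold at a limma adjusted p under 0.05 and a change of over 2-fold, the limits in the methods of the study. H2AX and CHAF1B were past it, lower, in PANC1, where 4.84% of all genes tested were, H2AX in MIA PaCa-2 (3.68% of all), and none of the 8 in PATU8988T (0.841% of all). Higher past the threshold were 1.75%, 4.07% and 0.159% of all genes in the 3 lines and none of the 8. CHAF1B in PANC1 lay just past 2-fold and was on the other side when control replicate 1, control replicate 2 or knockdown replicate 2 of PANC1 was left out (log2 fold changes -0.99, -0.97 and -0.92). In PANC1 the libraries of the 2 groups stood apart for 7 of the 8 genes, all lower (33.4% of all genes were apart and lower, and 41.7% apart and higher). They stood apart for 7 genes in MIA PaCa-2, again all lower (31.3% and 28% of all), and for 5 genes in PATU8988T, H2AX lower and ASF1B, CHAF1A, CHAF1B and NASP higher (24% and 27.9% of all). Nothing is read from these counts, since the genes were chosen with the contrasts in view. The median log2 fold change of the 8 genes was -0.69, -0.60 and 0.12 in PANC1, MIA PaCa-2 and PATU8988T, beside 0.06, -0.03 and 0.03 over all genes tested.

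Control replicate 2 of MIA PaCa-2 differed from controls 1 and 3 in step with transcript GC content. Over 10541 genes the deviation of that library from its group correlated with GC content at Pearson r = 0.854, a description across genes, which are not independent. Its median log2 difference from controls 1 and 3 ran from -0.65 in the quintile of genes with the lowest GC content to 0.58 in the quintile with the highest. H2AX, the richest of the 8 in GC (66.4%), was 0.64 above controls 1 and 3 in that library, CHAF1A (57.6%) 0.44 above and ASF1B (58.4%) 0.35 above. ASF1A (34.9%), HAT1 (40.9%), NASP (44.2%) and SLBP (50.7%) had differences of -0.42, -0.45, -0.28 and -0.47, and CHAF1B (48.7%) one of -0.03. The values of the 8 genes without that library were computed for this reason.

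**Figure D3:**
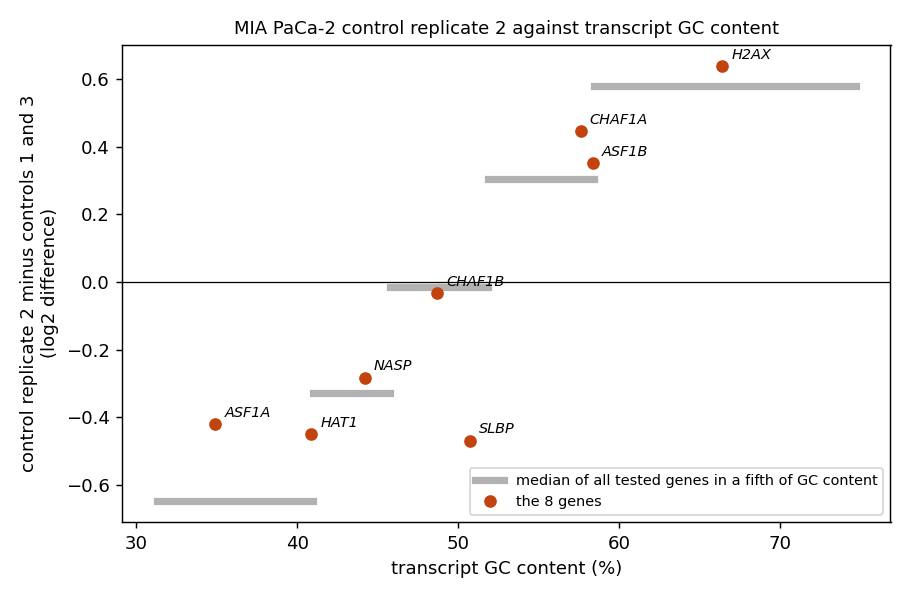
Log2 difference of MIA PaCa-2 control replicate 2 from the mean of controls 1 and 3 (y axis) against transcript GC content in percent (x axis), with points for the 8 genes and grey bars for the median over all tested genes in each quintile of GC content. H2AX sits highest, at 0.64, and SLBP lowest, at -0.47, below the bar of its own quintile.

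Without that library the log2 fold changes in MIA PaCa-2 drew closer together for the 7 genes other than H2AX. ASF1B was -0.69 (SE 0.037), CHAF1A -0.59 (SE 0.035) and CHAF1B -0.56 (SE 0.047). NASP was -0.72 (SE 0.031), SLBP -0.68 (SE 0.031), ASF1A -0.72 (SE 0.070) and HAT1 -0.19 (SE 0.035). All 8 genes were then apart and lower, as were 43.9% of all genes, with 39.1% apart and higher, and H2AX was again the single member past the threshold (3.78% of all genes lower past it and 4.17% higher).

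The order of levels among the 8 genes differed between lines. In the PANC1 controls the order was NASP, HAT1, SLBP, H2AX, ASF1B, ASF1A, CHAF1A and CHAF1B, with overlapping libraries between SLBP and H2AX and between ASF1B and ASF1A. In the MIA PaCa-2 controls H2AX, NASP and ASF1B led with overlapping neighbours, and after knockdown H2AX was number 6, overlapping CHAF1A. Over MIA PaCa-2 controls 1 and 3 alone, NASP led at a mean of 97.8 FPKM. H2AX (87.6 FPKM) and ASF1B (69.4 FPKM) followed, with no overlap among the libraries of these genes. In PATU8988T H2AX led in both groups, above ASF1B, with no overlap. Between lines, the H2AX controls of PANC1 (30.3 ± 2.85 FPKM, SD, n = 3) were below the 104 ± 28.2 of MIA PaCa-2 and the 88.1 ± 2.07 of PATU8988T, and the last 2 overlapped. ASF1B showed the widest gap as a ratio (0.163), with 12.4 ± 1.37 FPKM in the PANC1 controls below the 75.8 ± 11.2 of MIA PaCa-2 and the 50.6 ± 0.798 of PATU8988T. The gene length behind FPKM was the same in the 3 lines for 6 of the 8 genes, but in PANC1 that of HAT1 was 0.607 and that of CHAF1B 0.985 of the length in the other 2 lines, so the PANC1 level of HAT1 is not on the scale of the others.

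Markers of cycling cells were lower after knockdown in PANC1 and MIA PaCa-2. In PATU8988T the S-phase markers were higher, while the share of G2/M markers that rose (22.2%) was near that of all genes (20.9%). In that line H2AX was lower (log2 fold change -0.16, and -0.06 after GC correction) and ASF1A at 0.00. The level summed over 40 S-phase genes was 800 to 809 FPKM in the PANC1 controls and 452 to 462 after knockdown, 1834 to 1884 and 1151 to 1161 in MIA PaCa-2, and 1254 to 1268 and 1430 to 1447 in PATU8988T. The sum over 54 G2/M genes was 1809 to 1835 and 1030 to 1037 in PANC1, 4026 to 4286 and 2635 to 2646 in MIA PaCa-2, and 2867 to 2902 and 2991 to 3049 in PATU8988T. At a limma adjusted p under 0.05, S-phase genes lower after knockdown numbered 35 of 40 for PANC1, 30 for MIA PaCa-2 and 0 for PATU8988T, and those higher 2, 0 and 19. Of the 54 G2/M genes, 50, 35 and 6 were lower and 2, 0 and 12 higher. Each count of 0 among these was 0 at an unadjusted p under 0.05 as well. Of all PANC1 genes tested, 32.2% were lower and 40.1% higher at that limit. The shares for MIA PaCa-2 were 21.7% and 18.7%, and those for PATU8988T 18.5% and 20.9%. The part of the cell cycle in the changes of the 8 genes was not tested. The median log2 fold change of the S-phase genes was -0.82, -0.61 and 0.14 in the 3 lines. That of the G2/M genes was -1.04, -0.66 and 0.006, beside 0.06, -0.03 and 0.03 over all genes tested.

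Other genes of histone supply were read from lists that were also chosen with earlier results known. Of 68 replication-dependent histone genes, 64 were in the table and 17, 13 and 13 reached a mean of 1 FPKM in PANC1, MIA PaCa-2 and PATU8988T, most at a few FPKM. In PANC1 11 of 17 rose and 2 fell, in MIA PaCa-2 3 of 13 rose and 4 fell, and in PATU8988T 8 of 13 rose and none fell (limma adjusted p under 0.05). Here and in the lists that follow, a count of 0 was 0 at an unadjusted p under 0.05 as well. Their median log2 fold changes were 0.73, 0.30 and 0.65, beside 0.06, -0.03 and 0.03 over all genes. In MIA PaCa-2 the median was positive although 4 genes fell and 3 rose. The balance in that line turned to 5 that fell and 6 that rose without control replicate 2, to 1 and 4 of 7 with all 18 libraries in one fit, and to 0 and 2 of 2 at a mean of at least 5 FPKM. The shares of all genes that fell and rose, given above for each line, are the background for each list. These mRNAs lack a poly(A) tail in the main, near-identical copies can share reads, and the labels and the methods name different library kits.

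H2BC12, an H2B gene and the most expressed of those named, rose in all 3 lines. It was 107, 111 and 112 FPKM in the PANC1 controls and 178, 192 and 179 FPKM after knockdown (log2 fold change 0.73, SE 0.032, limma adjusted p = 2.08e-08). In MIA PaCa-2 it was 29.1, 28 and 26.6 FPKM in the controls and 35.3, 37.1 and 37.8 FPKM after knockdown (0.40, SE 0.075, limma adjusted p = 0.00697). In PATU8988T it was 89.9, 88.8 and 95.4 FPKM in the controls and 152, 163 and 144 FPKM after knockdown (0.74, SE 0.049, limma adjusted p = 7.48e-06). Every knockdown library was above every control in each line. H2BC5 also rose in all 3 lines, with log2 fold changes of 1.07, 1.13 and 0.57 (limma adjusted p = 9.54e-08, 0.00269 and 4.38e-04), and H1-2, a linker histone gene, with 0.53, 0.66 and 0.63 (limma adjusted p = 7.83e-04, 0.0143 and 6.12e-06). H1-2 missed the limit in MIA PaCa-2 when any 1 knockdown library of that line was left out (limma adjusted p up to 0.0651). H2AC6 rose in PANC1 (0.76) and PATU8988T (0.95) and had 0.66 in MIA PaCa-2 with an SE of 0.36 (limma adjusted p = 0.187).

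Past 2-fold, H2AC8, H2BC15 and H4C8 rose in PANC1, all from under 4 FPKM, and H2BC11 and H2BC4 rose in PATU8988T, with log2 fold changes of 1.2 and 1.12. H2BC21 fell in PANC1 (-1.28, SE 0.13), with control libraries at 4.06 to 5.01 FPKM and knockdown libraries at 1.47 to 2.15 FPKM, and rose in PATU8988T (0.47, SE 0.14), a call lost under 5 of 15 alternatives. Apart from H2BC5, the other genes of the list past 2-fold reached the mean of 1 FPKM only through the group where they were high, so that they had to differ, and nothing is read from their calls. They are H2AC15 and H2BC8 in PANC1, with control means of 0.676 and 0.858 FPKM and knockdown means of 1.64 and 2.77 FPKM, and H2AC11, H2AC14, H2BC13 and H3C3 in MIA PaCa-2, with control means of 1.73 to 1.85 FPKM and knockdown means of 0.566 to 0.879 FPKM. The last 4 are all of those counted as fallen in that line. H2AC11 in PANC1 (-0.90) and H2AC14 in MIA PaCa-2 each lost its call under several alternatives.

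Replacement histones are made outside S phase as well. Of the tested genes, 5 of 11 fell and 5 rose in PANC1, 5 of 10 fell and none rose in MIA PaCa-2, and 1 of 10 fell and 5 rose in PATU8988T. H3-3B, one of a pair of genes for H3.3, went from a mean of 110 to 65.6 FPKM in PANC1 (log2 fold change -0.75, SE 0.028) and from 138 to 80.0 FPKM in MIA PaCa-2 (-0.79, SE 0.057), while the other gene, H3-3A, had 0.15 and -0.24, and MIA PaCa-2 did not pass for it. CENPA, the H3 of centromeres, fell in PANC1 (-0.67, SE 0.074) and MIA PaCa-2 (-1.06, SE 0.070) and rose in PATU8988T (0.14, SE 0.036). H2AZ1, which encodes the variant H2A.Z, was the most expressed of those named, at 342 and 268 FPKM in PANC1, 474 and 301 FPKM in MIA PaCa-2 and 565 and 631 FPKM in PATU8988T. Its log2 fold changes were -0.35, -0.64 and 0.16. The PATU8988T calls of CENPA, H2AZ1 and H3-3B (-0.11) were each lost when control replicate 2 of that line was left out. H1-10, a linker histone, fell in PANC1 (-0.68) and MIA PaCa-2 (-0.58) and had 0.08 in PATU8988T, and its MIA PaCa-2 call was lost without any 1 of the knockdown libraries. H3-5, past 2-fold and lower in PANC1, reached the mean of 1 FPKM only through its controls (1.78 against 0.687 FPKM), had 1 knockdown library at 0.0785 FPKM, and lost its call under 4 of 15 alternatives. Nothing is read from that call of H3-5.

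Among the 27 other histone chaperones, 10 fell and 12 rose of 27 in PANC1, 11 fell and 2 rose of 27 in MIA PaCa-2, and 5 fell and 8 rose of 26 in PATU8988T. These were 37.0% and 44.4%, 40.7% and 7.41%, and 19.2% and 30.8% of the list, near the shares of all genes in PANC1. DNAJC9, a heat shock co-chaperone that binds H3-H4, fell from 51.6 ± 3.17 to 16.5 ± 1.03 FPKM in MIA PaCa-2 (SD, n = 3; log2 fold change -1.64, SE 0.086, limma adjusted p = 1.56e-04) and by less in PANC1 (-0.74, SE 0.042), and rose in PATU8988T (0.24, SE 0.040). HIRA, the chaperone that deposits H3.3, fell in all 3 lines, with -0.63, -1.29 and -0.34 (SE 0.077, 0.11 and 0.044). HJURP, the chaperone of CENPA, fell from 24 to 6.87 FPKM in PANC1 (-1.80, SE 0.088) and by less in MIA PaCa-2 (-0.68) and PATU8988T (-0.22). TONSL, which reads new H4 on replicated chromatin, fell in PANC1 (-1.20, SE 0.098) and MIA PaCa-2 (-1.38, SE 0.22) and had -0.16 in PATU8988T. ANP32E, which removes H2A.Z, fell in PANC1 (-0.81) and PATU8988T (-0.20) and had -0.53 in MIA PaCa-2, where control 2 overlapped the knockdown libraries. NPM1, the most expressed gene of the list, had 0.05, -0.11 and 0.19, and in PANC1 its sign turned under GC correction and quantile normalization and its call was lost under 8 of 17 alternatives.

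**Figure D4:**
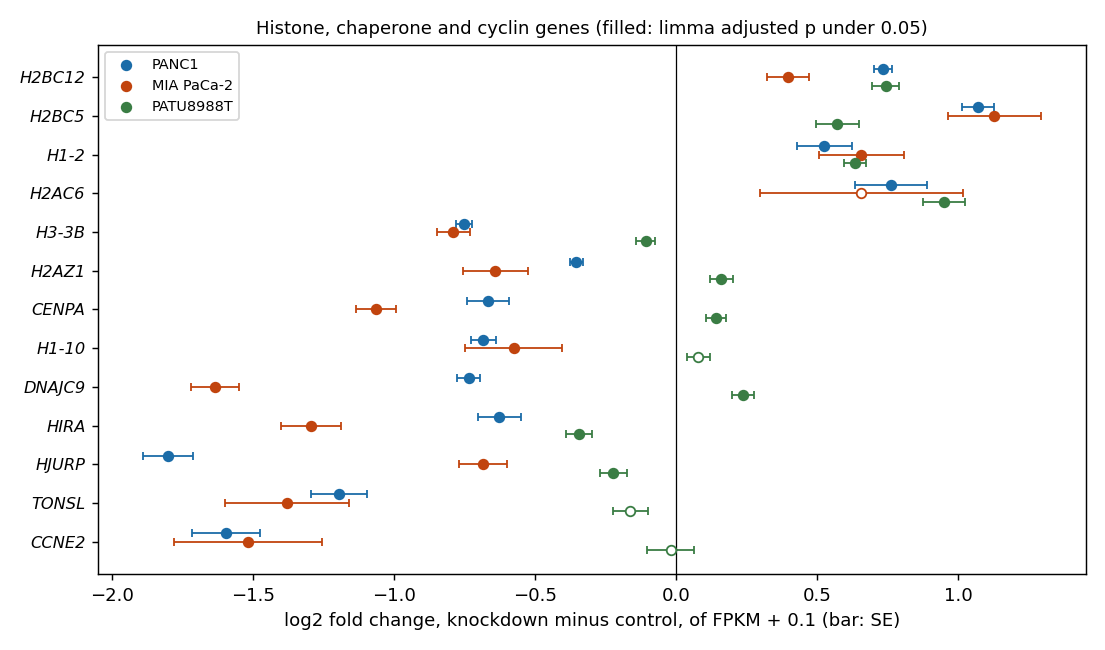
Log2 fold change, knockdown minus control, of 13 of the named list genes in the 3 lines, picked for display after their values were seen, with bars for the SE, filled points at a limma adjusted p under 0.05 and open points above it. CCNE2 in MIA PaCa-2 reached the mean of 1 FPKM only through its controls, and nothing is read from its filled point. H2BC12, H2BC5, H1-2 and H2AC6 lie to the right of 0 in every line. HIRA, H3-3B, HJURP, TONSL and CCNE2 lie to the left in every line, CCNE2 at -0.02 in PATU8988T.

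Of the 16 genes for the synthesis and 3′ processing of histone mRNA, 3 fell and 5 rose in PANC1, 6 fell and none rose in MIA PaCa-2, and none fell and 8 rose in PATU8988T. CCNE2, a cyclin that with CDK2 drives histone gene transcription, was the single gene of them past 2-fold. It had means of 3.29 and 1.03 FPKM in PANC1 (-1.60, SE 0.12, limma adjusted p = 1.11e-06), against -0.02 in PATU8988T. In MIA PaCa-2 it had 2.52 and 0.777 FPKM (-1.52, SE 0.26). There CCNE2 reached the mean of 1 FPKM only through its controls, so nothing is read from that call. CDK2 itself had -0.47, -0.44 and 0.22, each past the adjusted p. CSTF2, which also acts in histone pre-mRNA cleavage, fell in MIA PaCa-2 (-0.75, SE 0.10), and ZNF473, a partner of the U7 particle, rose in PANC1 (0.88, SE 0.099).

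Of the 21 genes that write, erase or read the H2AX mark, 20, 18 and 18 were tested. In PANC1 5 fell and 10 rose, in MIA PaCa-2 6 fell and 3 rose, and in PATU8988T 1 fell and 3 rose, and none passed 2-fold. These were 25% and 50%, 33.3% and 16.7%, and 5.56% and 16.7% of the genes tested, beside the shares of all genes given above. BAZ1B, a kinase of the C-terminal tyrosine of H2AX, fell in PANC1 (-0.28) and MIA PaCa-2 (-0.71), and so did UBE2N, the ubiquitin-conjugating partner of RNF8 (-0.32 and -0.79). RNF8 fell in MIA PaCa-2 (-0.52) and had -0.04 in PANC1. The phosphatase genes PPP6C and PPM1D rose in PANC1 (0.41 and 0.32) and PATU8988T (0.35 and 0.41), and PPM1D in PANC1 lost its call under 9 of 16 alternatives.

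Whether the change of a list gene differed between lines was tested by an interaction term over all 18 libraries. Of 77 list genes tested in all 3 lines, 37 differed between PANC1 and MIA PaCa-2 (43.4% of the 9083 genes tested), 23 between PANC1 and PATU8988T (35.8%) and 46 between MIA PaCa-2 and PATU8988T (52.9%). In the last pair 39 of the 46 had the lower value in MIA PaCa-2. The direction over all genes is not given for that pair, so nothing is read from this split. Within lines, the 5 lists together had 32 genes that fell and 8 that rose in MIA PaCa-2, and 49 and 16 without control replicate 2, where 39.8% and 35.4% of all genes did. By list, the genes that fell and rose without it were 5 and 6 of the replication-dependent histones, 6 and 0 of the replacement histones, 17 and 4 of the other chaperones, 11 and 1 of the mRNA genes, and 10 and 5 of the H2AX modifiers and readers. The differences between lines then numbered 48, 42 and 60 in the order above. No share of all genes is given for them at that setting, so nothing is read from the rise. The corresponding counts were 25 and 43 in PANC1 and 7 and 32 in PATU8988T.

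The genes whose levels followed H2AX most closely were named by Pearson correlation of line-centred log2 values over the 18 libraries, as a description. They were RCC1 (r = 0.993), the nucleotide exchange factor of Ran, UBTF (0.992), a transcription factor of ribosomal RNA genes, SERPINH1 (0.991), a collagen chaperone, APMAP (0.991) and PPIF (0.991), the mitochondrial cyclophilin. PPIF had log2 fold changes of -1.59, -2.36 and -0.10, and RCC1 -0.98, -1.60 and -0.10, in PANC1, MIA PaCa-2 and PATU8988T. Without MIA PaCa-2 control replicate 2 the 5 were RRN3, RCC1, SLC35B2, ATMIN and PPIF, so 2 of the 5 were in both. The other 7 histone supply genes had r from 0.189 (HAT1) to 0.916 (CHAF1A) over the 18 libraries, and 0.693 (HAT1) to 0.959 (NASP) over 17. The libraries share line, treatment and, in MIA PaCa-2, the GC pattern.

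DPAGT1, which starts protein N-glycosylation and lies 1036 bases from H2AX on the same strand, had log2 fold changes of 0.00 and 0.09 in PANC1 and MIA PaCa-2 (SE 0.035 and 0.087) and fell in PATU8988T (-0.15, SE 0.046).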

How the data were processed

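RNA-seq of 18 libraries was analysed, 3 control and 3 knockdown for each of 3 lines. The authors deposited FPKM values, aligned with HISAT2 and counted with HTSeq-count per the methods of the study. Labels list hg38, GRCm38 and mm10 without a role. Labels and methods name different kits. For each line, limma 3.58.1 (R 4.3.3; trend) was run on log2(FPKM + 0.1) for genes of mean FPKM of at least 1, with Benjamini-Hochberg adjustment across all genes tested. The step of the FPKM values gave whole reads (32246116 to 39521410 per library), used for depth only. The methods speak of independent repeats of assays without naming the RNA-seq, so p-values measure the spread between these libraries, which may be technical. Members and lists were chosen with earlier results of these data known. Named were the 8 genes, OFD1, DPAGT1 beside H2AX, the 3 smallest p in each list and line and every list gene past the threshold, and the 5 genes most like H2AX, and 1 gene under this rule is not reported here. Cell cycle lists came from Seurat 5.3.0 without the 8 genes. Gene positions and GC content came from GENCODE 29. The main fit of each line and the recovery of reads were tested on simulated data, but the interaction fit and the alternatives were not. Alternatives were other pseudocounts, filters, scalings, GC correction, blocks and left-out libraries.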

Additional observations from a re-analysis of the deposited data

Results flagged for a closer look

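Some results differed between lines. ASF1B, CHAF1A, CHAF1B and NASP were lower in every knockdown library than in every control in PANC1 and MIA PaCa-2, and higher in every one in PATU8988T, where their log2 fold changes were 0.18, 0.070, 0.19 and 0.13. This difference was not tested, since the genes were chosen with these contrasts in view.

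Among the other list genes, 37, 23 and 46 of 77 changed by different amounts in PANC1 and MIA PaCa-2, in PANC1 and PATU8988T, and in MIA PaCa-2 and PATU8988T by the interaction term in limma. These are 48.1%, 29.9% and 59.7% of the list, beside 43.4%, 35.8% and 52.9% of all genes tested. Without MIA PaCa-2 control replicate 2 the counts were 48, 42 and 60, for which no share of all genes is given. For 9 named genes among those tested in all 3 lines the direction itself differed, with calls in both lines. The difference in log2 fold change, MIA PaCa-2 minus PATU8988T, was -1.87 for DNAJC9 (limma adjusted p = 6.01e-11), -1.21 for CENPA (2.51e-08), -0.96 for CDC25A (2.89e-06) and -0.93 for CSTF2 (1.07e-06). It was -0.83 for LSM10 (1.50e-04), -0.80 for H2AZ1 (1.49e-05), -0.66 for CDK2 (6.89e-07), -0.65 for PPP2CA (3.64e-05) and -0.59 for H2AZ2 (5.03e-05). For PANC1 minus PATU8988T it was -0.97 for DNAJC9, -0.81 for CENPA, -0.69 for CDK2 and -0.51 for H2AZ1. For PANC1 minus MIA PaCa-2 it was 0.61 for CDC25A, 0.65 for LSM10 and 0.63 for PPP2CA. Of the calls behind these, those of CDC25A and LSM10 in PANC1 were lost under 8 of 16 and 3 of 17 alternatives. In MIA PaCa-2 those of CDC25A and LSM10 were each lost under 5, and those of PPP2CA and H2AZ2 under 4. In PATU8988T that of CSTF2 was lost under 9, H2AZ1 under 4, and CENPA and H2AZ2 under 3. H2BC21, tested in PANC1 and PATU8988T only, was lower in every knockdown library of PANC1 (-1.28) and higher in every one of PATU8988T (0.47), a difference that was not tested.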

How the results depend on the processing

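The sign of a log2 fold change of the 8 genes turned only for values near 0, HAT1 in MIA PaCa-2 under 3 alternatives (0.018 to 0.067) and ASF1A in PATU8988T under 6 (-0.041 to -0.016). Of 86 calls of named list genes, 26 were lost under at least 1 alternative and 1 turned in sign (NPM1 in PANC1). Over the alternatives, 391 of 407 log2 fold changes of the 8 genes stayed within 1 SD of the reported value. The SD is the spread within groups, which control replicate 2 widened for most of the 8 genes in MIA PaCa-2. That count includes alternatives that could not move the value: the filters, the replicate block alone, no variance trend and all 18 libraries in one fit. Dropping the 2-fold limit raised the PANC1 counts from 528 lower and 191 higher to 3507 and 4375, those for MIA PaCa-2 from 396 and 438 to 2338 and 2012, and those for PATU8988T from 90 and 17 to 1981 and 2235. Adding that limit to the list genes called by limma left 5 that fell and 6 that rose (PANC1), 9 and 1 (MIA PaCa-2), and 0 of 7 and 2 of 32 (PATU8988T). With all 18 libraries in one fit, the higher genes numbered 53 for PANC1, 231 for MIA PaCa-2 and 5 for PATU8988T, the lower ones of PATU8988T 43, and 21 list genes rose in PANC1 while 2 fell and 16 rose in PATU8988T. A pseudocount of 1 left 346 lower and 96 higher genes in PANC1, 219 higher in MIA PaCa-2, and 23 lower and 11 higher in PATU8988T, and gave log2 fold changes of -0.75 for CHAF1A and -0.72 for CHAF1B in PANC1 and -0.50 for CHAF1B in MIA PaCa-2. Without a filter on low values, the higher genes numbered 360 for PANC1, 772 for MIA PaCa-2 and 45 for PATU8988T, and the lower ones of PATU8988T 192. At a mean of at least 5 FPKM, where CHAF1B in PANC1 had no value, PANC1 had 336 lower and 80 higher, MIA PaCa-2 177 higher, and PATU8988T 23 lower and 7 higher. Median-ratio scaling gave -0.56 for NASP and -0.24 for HAT1 in PANC1. Quantile normalization gave -0.47 for NASP in PANC1, and -0.50 for CHAF1B and -0.49 for NASP in MIA PaCa-2. GC correction, with or without the replicate block, gave -0.61 for NASP, -0.29 for SLBP and -0.26 for HAT1 in PANC1, -0.059 for H2AX in PATU8988T and 13 list genes that rose in MIA PaCa-2. Over all genes of MIA PaCa-2, those that rose at the limma adjusted p numbered 3573 with GC correction alone, against 2012 in the main fit. GC correction gave 39 list genes whose change differed between PANC1 and PATU8988T, and 37 with the block as well. Counted before the start only, the E2F-like motif was held by 1 of the 8 genes. The cause of these shifts was not tested.

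Libraries of one number varied together little (correlations of deviations -0.003 to 0.080 in PANC1, -0.111 to -0.038 in MIA PaCa-2 and -0.105 to 0.130 in PATU8988T). Between unlike numbers the values were -0.096 to 0.035, -0.073 to 0.111 and -0.231 to 0.226. In PANC1 replicates 2 and 3 (0.080 and 0.065) were above every value of unlike numbers, so whether numbers pair libraries there is not settled. With the replicate block 5 list genes rose in MIA PaCa-2, and 26 fell, and the log2 fold changes of the 8 genes were as reported. Leaving out 1 library at a time gave 18 to 49 list genes that fell and 2 to 16 that rose in MIA PaCa-2, the highest without control replicate 2 and the lowest without a knockdown library (18 and 2, 20 and 2, and 18 and 3 without replicates 1, 2 and 3). In PATU8988T 4 to 8 list genes fell, the lowest without control replicate 3. The list genes whose change differed between PANC1 and PATU8988T ranged from 19 to 42, the highest without MIA PaCa-2 control replicate 2. Levels near 1 FPKM, as for most replication-dependent histone genes, rest on few reads and limit what could be told there.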
